A study of Mus musculus with 16 samples.

Results

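The protein-coding genes of the cytosolic ribosome were followed across 16 mouse brain libraries. A gene was taken as a member when its mouse symbol began with Rpl, Rps or Rplp and then a digit, with symbols containing -ps, symbols beginning with Rps6k, and Rps19bp1 left out. Of 33289 gene IDs in the deposited table, 84 were members, 52 of the large subunit and 32 of the small subunit, and 81 of them (49 large, 32 small) reached 0.5 RPKM (reads scaled to transcript length and library size) in at least 3 libraries and were tested. Another 212 IDs carried ribosomal protein symbols with -ps, the mark of pseudogenes. RNA was taken from PBS-perfused hemi-brains of C57BL/6J mice aged 3 to 4 months, 8 hours after an injection of LPS (lipopolysaccharide, the bacterial endotoxin) or saline. There were 4 libraries in each of 4 groups: mice labelled Lcn2-/- given LPS, wild type mice given LPS, mice labelled Lcn2-/- given saline and wild type mice given saline. Lipocalin-2, the product of Lcn2, is secreted and traps the siderophores with which bacteria take up iron; the labels do not say how its allele was made.

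As a check of the genotype labels, Lcn2 itself stood at 40.2, 34.1, 38.3 and 37.2 RPKM in the libraries labelled Lcn2-/- after LPS, against 71.5, 67.8, 66.7 and 82.7 RPKM in wild type after LPS. After saline it stood at 0.132, 0.204, 0.351 and 0.247 RPKM in those labelled Lcn2-/- and at 0.0650, 0.0741, 0.204 and 0.137 RPKM in wild type. Lcn2 transcript was thus present after LPS in the libraries labelled Lcn2-/-, at a lower level than in wild type, and which exons were read is unknown; the genotype is therefore given below as the label has it. The table gives log2 RPKM and no counts, which leaves sequencing depth unknown, and the median over all tested genes was practically the same in every library (2.14 on the log2 scale). In whole-brain RNA, fewer cells of a type and less RNA per cell cannot be told apart.

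The cytosolic ribosome translates nuclear-encoded mRNA into protein. Its small subunit reads the codons and its large subunit joins the amino acids, and each ribosomal protein is made at a rate that must match its partners, since unassembled copies are degraded. In mammals the known ribosomal protein mRNAs start with a C followed by an uninterrupted run of pyrimidines, the TOP motif, through which mTOR signalling controls their translation, while transcription of the genes draws on factors such as those of the ETS family and YY1. In the brain, systemic LPS is known to set off a transcriptional response in its endothelial and glial cells within hours.

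Short promoter words were counted in the members and in all genes with a promoter. RefSeq (GRCm38.p6) held a promoter for 64 of the 84 members. A run of at least 8 bases, all C or T, lay between 40 bases before and 20 bases after the annotated start on the coding strand in 36 of these 64 promoters (56.2%), against 27.2% of 27025 genes with a promoter in the same table. Within the whole 300-base promoter, read on both strands, the ETS-type word CCGGAAG was found in 37.5% of the members against 9.10% of all genes, and the YY1-type word AAGATGGC in 7.81% against 2.86%. The word TATAAA, read on the coding strand, was found in 9.38% of the members and 8.89% of all genes. These are matches of letters, and nothing was measured at the promoters themselves. The pyrimidine run was present in 16 of 26 promoters (61.5%) of the members that rose after LPS in brains labelled Lcn2-/-. It was present in 20 of 38 (52.6%) of the other members with a promoter, which include Rpl3l, Rpl10l and Rpl39l, too low to be tested. The following stretches, which run from 40 bases before to 20 bases after the annotated start, are shown for 5 members that were higher in brains labelled Lcn2-/- than in wild type after LPS, and for Rps21, which fell after LPS in brains labelled Lcn2-/-. Capitals mark the longest run of C and T in each stretch, and both runs where 2 are of equal length.
Rpl24, chr16:55966235-55966294, plus strand: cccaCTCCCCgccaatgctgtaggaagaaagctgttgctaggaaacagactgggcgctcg
Rps4x, chrX:102189372-102189431, minus strand: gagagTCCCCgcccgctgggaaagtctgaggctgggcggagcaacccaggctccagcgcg
Rplp2, chr7:141447611-141447670, plus strand: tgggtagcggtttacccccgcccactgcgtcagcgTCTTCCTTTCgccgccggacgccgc
Rpl18, chr7:45718031-45718090, plus strand: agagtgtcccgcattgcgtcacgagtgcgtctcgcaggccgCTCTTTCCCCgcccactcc
Rpl12, chr2:32961672-32961731, plus strand: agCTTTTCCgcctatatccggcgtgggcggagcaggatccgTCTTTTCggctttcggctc
Rps21, chr2:180257409-180257468, plus strand: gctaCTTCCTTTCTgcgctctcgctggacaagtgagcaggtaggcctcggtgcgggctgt
The runs of Rplp2, Rpl18 and Rps21 are 10 bases long. A TOP motif would lie at the start: the run of Rplp2 spans the annotated start, that of Rpl18 and the second of the 2 runs of Rpl12 (7 bases each) begin 1 base after it, and that of Rps21 lies before it. Rpl24 and Rps4x, with the largest called differences between genotypes after LPS, hold no run of 8 in this window (6 and 5 bases). The sequence shown depends on the start that RefSeq annotates.

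Levels differed far more between members than between conditions. Over the 16 libraries the highest geometric means were 297 RPKM for Rplp1, an acidic protein of the ribosomal stalk that draws in translation factors, 293 RPKM for Rpl8, which lies near the peptidyl transferase centre, and 271 RPKM for Rpl4, which helps to form the exit tunnel. The lowest among the tested members were 6.48 RPKM for Rpl35a, 6.63 RPKM for Rps19 and 6.68 RPKM for Rpl18. Proteins were not measured. The members share sequence with their processed pseudogenes. Over 1 coding transcript per member, a median of 57.4% of the 50-base windows recurred in another annotated gene of any kind. The geometric-mean level had a median of 82.0 RPKM (35.3 to 293) over the 4 tested members with fewer than 10% of their windows shared. It was 43.7 RPKM over the 31 with 10 to 50%, and 29.3 RPKM over the 46 with 50% or more. Over the 81 tested members the relation was weak, with r = -0.22 and rho = -0.18 between the percent of shared windows and the mean log2 level. How reads of shared sequence were assigned is not stated, so absolute levels of most members are uncertain. The 3 untested members were paralogs with low values: Rpl3l, known from muscle, ranged from 0.115 to 0.406 RPKM, Rpl10l, known from testis, from 0.00425 to 0.0900 RPKM, and Rpl39l from 0.0266 to 0.872 RPKM.

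One library stood apart in these genes. In Lcn2-/- saline replicate 4, the only one whose title carries a letter after its number, the difference of a member from the mean of the other 3 libraries of its group had an SD of 0.42 log2 over the 81 members, while the 12 libraries of the other groups had SDs of 0.06 to 0.09. In that library 16 members lay more than 0.3 log2 below their group and 19 more than 0.3 above it, with the highest at 1.26 for Rpl29. The mean of these differences was 0.03 log2. Longer members tended to be low in it: over the 81 members its difference had r = -0.33 and rho = -0.36 with coding length, a description across genes from 1 library. The wide spread was not confined to the members. Over all tested genes the SD of such differences was 0.53 log2 in that library and 0.20 to 0.27 in the other 15. That library also had 17112 genes at 0.5 RPKM or more, against 16372 to 16497 in the other 15. It enters every comparison as part of the shared estimate of the spread, and it enters the estimates for saline-injected brains labelled Lcn2-/- directly, so counts are given with and without it.

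**Figure D1:**
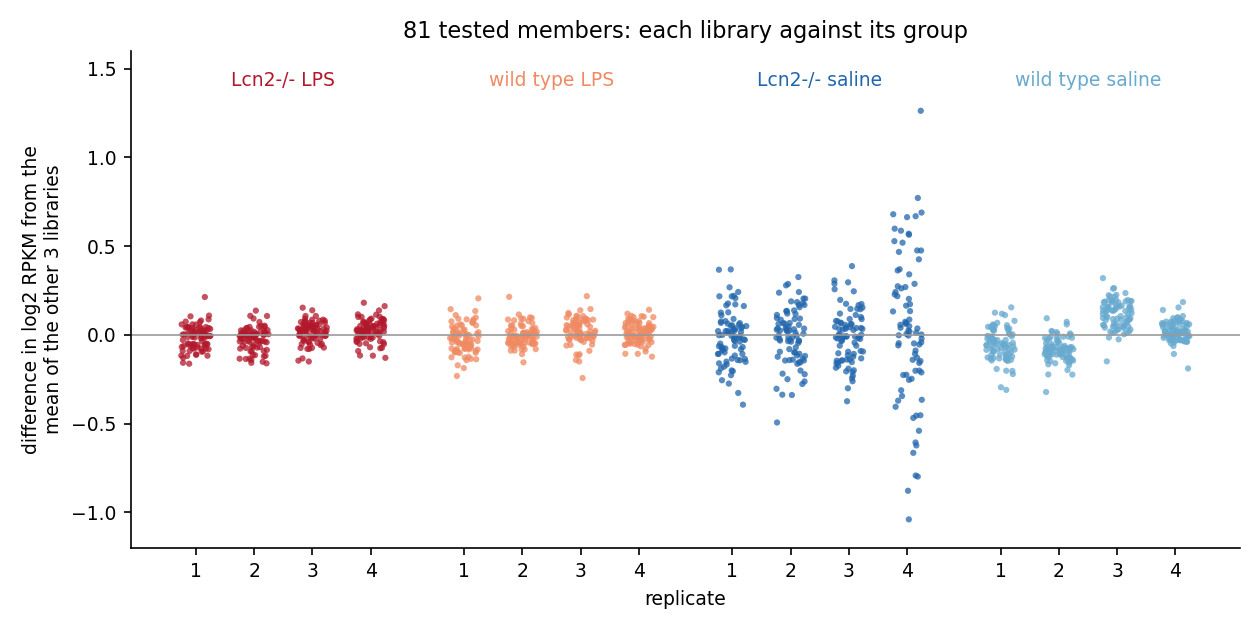
Difference (log2) of each of the 81 tested members from the mean of the other 3 libraries of its group, 1 column of points per library. Points of Lcn2-/- saline replicate 4 spread the widest, with the highest at 1.26 (Rpl29), and those of wild type saline replicate 3 lie mostly above 0 (mean 0.12).

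After LPS, the average over the members was higher in brains labelled Lcn2-/- than in wild type brains. It was 5.32 ± 0.02 log2 RPKM in Lcn2-/- LPS libraries and 5.21 ± 0.01 in wild type LPS libraries (SD, n = 4 each), and the ranges of 5.30 to 5.34 and 5.19 to 5.22 did not overlap. The 2 groups given saline averaged 5.21 ± 0.01 (Lcn2-/-, 5.20 to 5.23) and 5.25 ± 0.07 (wild type, 5.19 to 5.34). Wild type saline replicate 3, at 5.339, lay above all Lcn2-/- LPS libraries (up to 5.336). The summed level of the members was 5096 ± 54.6 RPKM in Lcn2-/- LPS and 4772 ± 24.0 RPKM in wild type LPS libraries, which is 2.28% and 2.13% of all RPKM. Both subunits showed it, with 5.10 against 4.98 log2 RPKM for the large and 5.65 against 5.55 for the small subunit in the same groups. After saline the summed level was 4921 ± 156 RPKM (Lcn2-/-, up to 5149) and 4963 ± 229 RPKM (wild type, up to 5261). The highest sum after LPS was 5153 RPKM, in Lcn2-/-. The Lcn2-/- LPS group had the highest of the 4 group means for 49 of the 81 members.

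**Figure D2:**
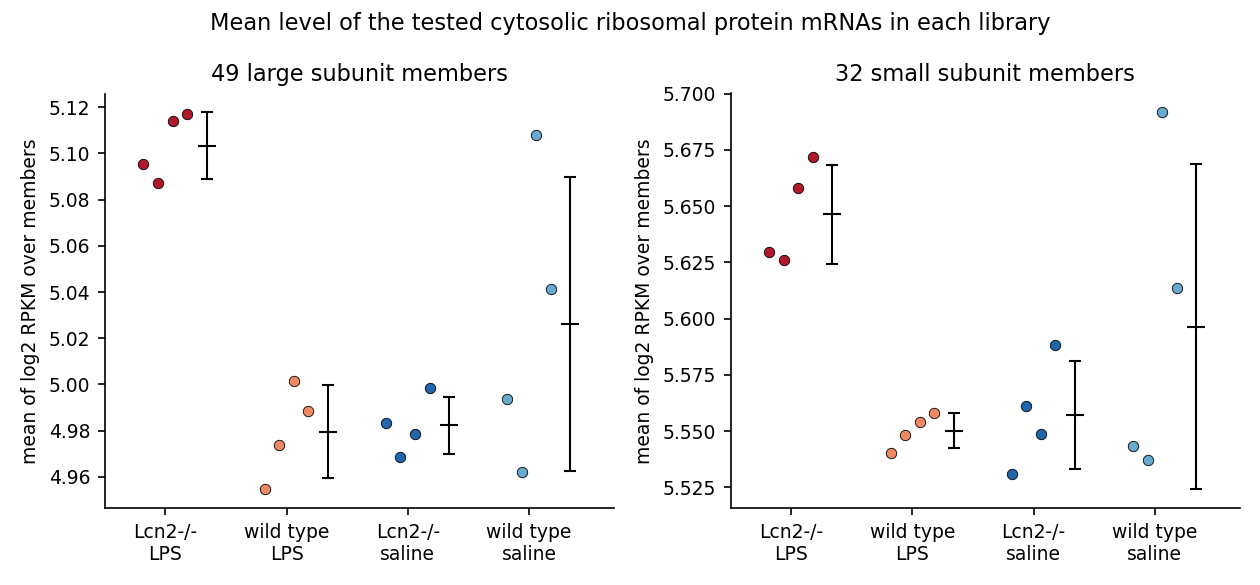
Mean log2 RPKM over the 49 large subunit members and over the 32 small subunit members in each library (points), with the group mean and SD (bars), n = 4 per group. The Lcn2-/- LPS libraries lie above all wild type LPS libraries in both panels, and wild type saline replicate 3 is the highest of its group.

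Gene by gene, 17 of the 81 members (21.0%) were called higher in Lcn2-/- LPS than in wild type LPS brains and 0 were called lower by limma, at an adjusted p under 0.05 over 17349 genes. Among all tested genes 7.04% were called higher and 8.74% lower. At an unadjusted p under 0.05, 31 of 81 members passed in either direction, against 31.1% of all genes. The median member was higher by 0.11 log2 (7.74%), against a median of -0.01 over all tested genes, and 72 of 81 estimates were above 0. The called differences ran from 0.10 log2 (1.07-fold) for Rpl4 to 0.31 log2 (1.24-fold) for Rpl24, so each was small. In 34 members all 4 Lcn2-/- LPS libraries lay above all 4 wild type LPS libraries, and in Rpl7l1 all lay below; over all genes these shares were 13.3% and 14.7%. With Lcn2-/- saline replicate 4 left out of the shared spread, 38 members were called higher and 1, Rpl7l1, lower (13.7% and 16.1% of all genes). That fit kept all 17, and its calls were 27 large and 11 small subunit proteins higher.

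Rpl5 and Rpl11 form, with a ribosomal RNA, the small particle that binds and restrains Mdm2 when ribosome assembly fails. Rpl5 (chr5:107900502-107909005, plus strand, mm10) stood at 16.1, 16.6, 16.7 and 16.1 RPKM in Lcn2-/- LPS, against 13.8, 13.8, 13.9 and 13.6 RPKM in wild type LPS. In saline-injected brains it stood at 14.3, 13.6, 13.2 and 14.3 RPKM (Lcn2-/-) and 14.1, 13.0, 14.6 and 13.8 RPKM (wild type). The Lcn2-/- LPS libraries lay above the other 12, and the difference after LPS was 0.25 ± 0.04 log2 (SE; 1.19-fold; limma adjusted p = 0.00063), the smallest p among the members in this comparison. Rpl11 had 13.3, 12.5, 12.9 and 13.6 RPKM in Lcn2-/- LPS and 11.0, 11.6, 11.7 and 10.6 RPKM in wild type LPS libraries. These ranges did not overlap either, but the difference of 0.22 ± 0.09 log2 missed the threshold (adjusted p = 0.0976), and passed without Lcn2-/- saline replicate 4 (adjusted p = 0.0042).

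The stalk of the large subunit is built from Rplp0, Rplp1 and Rplp2 and rests on Rpl12. Rplp2 (chr7:141447370-141451585, plus strand) stood at 34.1, 34.3, 34.2 and 34.4 RPKM in Lcn2-/- LPS, against 27.9, 30.6, 31.5 and 29.4 RPKM in wild type LPS. In saline-injected brains it stood at 29.8, 31.4, 30.4 and 26.5 RPKM (Lcn2-/-) and 31.3, 29.2, 33.3 and 31.3 RPKM (wild type). After LPS the genotypes differed by 0.20 ± 0.05 log2 (adjusted p = 0.0158) without overlap, and the 4 Lcn2-/- LPS values lay close together above the highest saline value. Rpl12 (chr2:32961559-32965345, plus strand) stood at 11.4, 11.9, 11.98 and 12.1 RPKM in Lcn2-/- LPS and 10.4, 9.97, 10.2 and 10.5 RPKM in wild type LPS libraries, a difference of 0.21 ± 0.06 log2 (adjusted p = 0.0411). Rplp1, the most abundant member, had 308, 315, 302 and 305 RPKM in Lcn2-/- LPS and 296, 293, 264 and 266 RPKM in wild type LPS libraries. Its groups did not overlap, yet 0.14 ± 0.05 log2 was not called (adjusted p = 0.0749; 0.0298 without Lcn2-/- saline replicate 4). For Rplp0 the difference was 0.09 ± 0.04 log2 (adjusted p = 0.131; 0.0253 without that library).

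Rpl24, which takes part in a bridge between the subunits, had the largest called difference. It stood (chr16:55966275-55971435, plus strand) at 87.1, 88.0, 88.2 and 84.7 RPKM in Lcn2-/- LPS, against 70.0, 73.3, 67.2 and 71.2 RPKM in wild type LPS. In saline-injected brains it stood at 69.7, 73.6, 69.5 and 79.4 RPKM (Lcn2-/-) and 73.5, 72.8, 84.7 and 76.9 RPKM (wild type). All Lcn2-/- LPS libraries were above all wild type LPS libraries, by 0.31 ± 0.05 log2 (adjusted p = 0.001), and of the saline libraries only wild type replicate 3 reached the lowest of them. Rpl18 (chr7:45715457-45720836, plus strand), a protein on the solvent side of the large subunit, had 7.52, 7.44, 8.14 and 7.22 RPKM in Lcn2-/- LPS and 6.24, 6.26, 6.80 and 6.25 RPKM in wild type LPS libraries. Its groups did not overlap and differed by 0.25 ± 0.05 log2 (adjusted p = 0.00379). Rpl7 (chr1:16101295-16104662, minus strand) had 36.6, 36.0, 35.9 and 38.4 RPKM in Lcn2-/- LPS and 29.5, 31.6, 32.3 and 32.6 RPKM in wild type LPS libraries, apart by 0.22 ± 0.04 log2 (adjusted p = 0.00116). Rpl13, Rpl14, Rpl30, Rpl9 and Rpl4 made up the rest of the 11 large subunit proteins called, with differences of 0.17, 0.16, 0.16, 0.16 and 0.10 log2.

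In the small subunit 6 proteins were called. Rps4x (chrX:102184941-102189394, minus strand), a protein of the small subunit body encoded on the X chromosome, stood at 94.8, 101, 105 and 102 RPKM in Lcn2-/- LPS, against 80.5, 80.8, 82.4 and 87.5 RPKM in wild type LPS. In saline-injected brains it stood at 81.3, 87.1, 88.8 and 71.8 RPKM (Lcn2-/-) and 87.5, 84.8, 92.3 and 87.3 RPKM (wild type). The Lcn2-/- LPS libraries were the highest of all 16, and lay 0.28 ± 0.06 log2 above wild type LPS (adjusted p = 0.00394). Rps20 (chr4:3831334-3835665, minus strand), a protein of the small subunit head with few shared windows (7.44%), had 39.0, 40.7, 41.8 and 42.1 RPKM in Lcn2-/- LPS and 34.4, 33.3, 34.4 and 34.5 RPKM in wild type LPS libraries. In saline-injected brains it had 32.4, 34.5, 35.1 and 28.6 RPKM (Lcn2-/-) and 32.9, 32.2, 36.8 and 35.7 RPKM (wild type). The Lcn2-/- LPS libraries were again above the other 12, and the difference from wild type LPS was 0.26 ± 0.06 log2 (adjusted p = 0.00708). Rps19 (chr7:24884371-24889806, plus strand), whose human gene is mutated in Diamond-Blackfan anaemia, had 7.22, 7.51, 7.73 and 7.59 RPKM in Lcn2-/- LPS and 6.22, 6.68, 6.49 and 6.82 RPKM in wild type LPS libraries, a difference of 0.20 ± 0.06 log2 (adjusted p = 0.0318) without overlap. Rps15a was called with 0.17 log2.

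**Figure D3:**
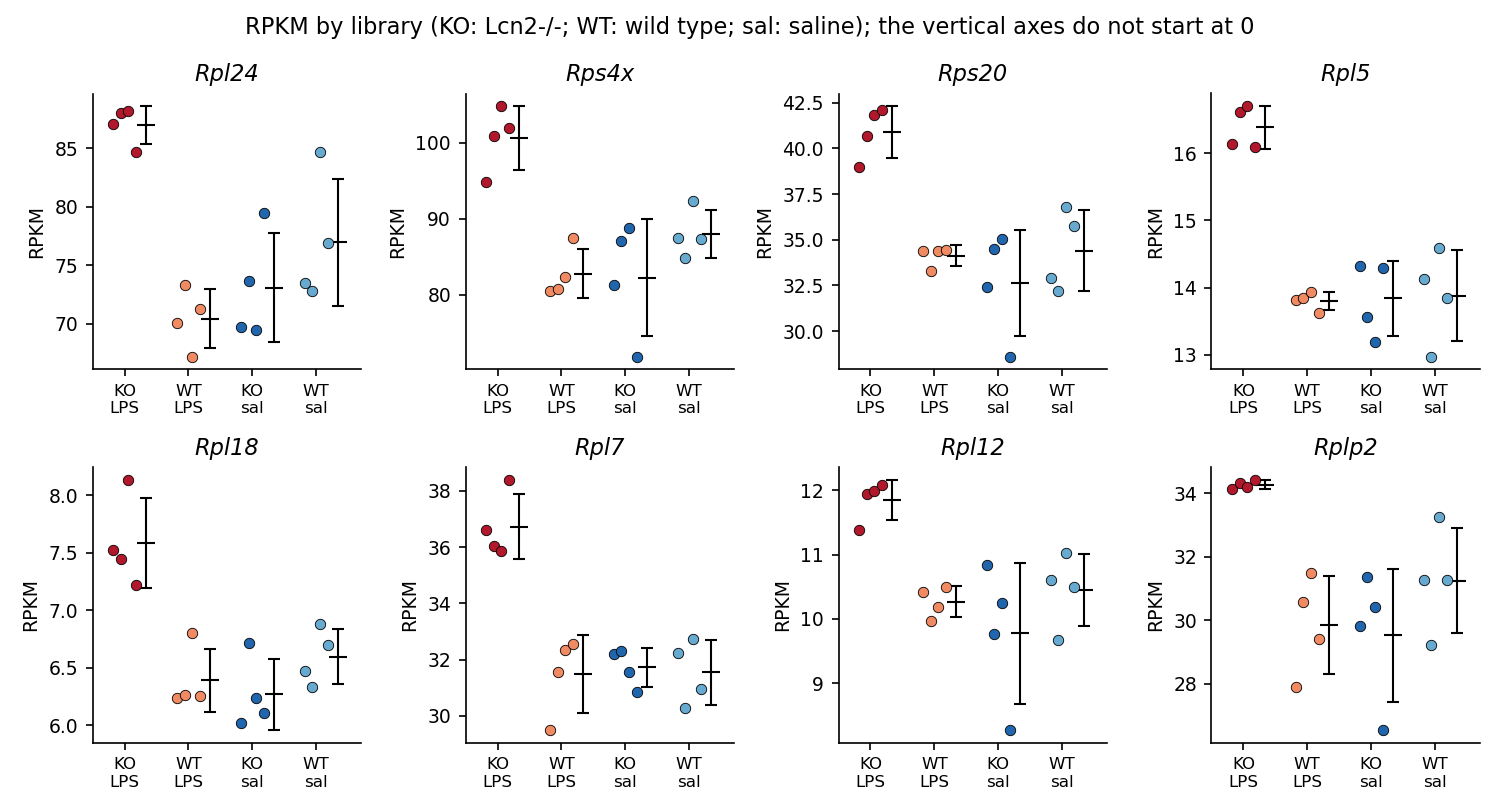
RPKM of the 8 members with the largest called difference between Lcn2-/- LPS and wild type LPS brains, 1 point per library with group mean and SD (n = 4 per group); axes do not start at 0. In every panel the 4 Lcn2-/- LPS libraries lie above the 4 wild type LPS libraries.

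Among the members of highest level that were not called, Rplp1 is described above. Rpl8, near the peptidyl transferase centre, had 299, 308, 311 and 311 RPKM in Lcn2-/- LPS and 280.3, 299, 291 and 296 RPKM in wild type LPS libraries, and Rps15, on the head of the small subunit, had 254, 245, 266 and 262 RPKM in Lcn2-/- LPS and 250.1, 252, 245 and 245 RPKM in wild type LPS libraries. The groups of both overlapped, with differences of 0.08 ± 0.07 and 0.05 ± 0.04 log2. Rpl7l1, a relative of Rpl7 known in human cells from ribosome precursors, ran the other way. It stood at 11.8, 10.9, 11.0 and 11.7 RPKM in Lcn2-/- LPS, against 11.8, 12.4, 12.3 and 12.2 RPKM in wild type LPS, without overlap by a narrow margin. Its difference of -0.10 ± 0.04 log2 was not called (adjusted p = 0.103; 0.0296 without Lcn2-/- saline replicate 4).

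In brains labelled Lcn2-/-, 34 of 81 members (42.0%) rose after LPS and 1, Rps21, fell, against 20.7% and 27.7% of all tested genes called higher and lower. The median member was higher by 0.12 log2 (8.30%), while the median over all genes was -0.03, and 57 of 81 estimates were above 0. The calls fell on both subunits, 21 of 49 large and 13 of 32 small, with median changes of 0.12 and 0.08 log2 (0.13 for each subunit without Lcn2-/- saline replicate 4). Groups did not overlap in 28 members that were higher and in Rps21, against 18.6% above and 23.8% below over all genes. Without Lcn2-/- saline replicate 4, 43 members rose and Rpl7l1 fell (20.7% and 28.1% of all genes), and the median change was 0.13 log2; 32 of the 34 were kept, Rpl15 and Rps6 were lost, and 71 of 81 estimates were above 0. This comparison shares the Lcn2-/- LPS libraries with the one above, so the 2 are not independent.

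Several of the largest increases were smaller without Lcn2-/- saline replicate 4. Rpl36al, the autosomal copy of the X-linked Rpl36a, stood at 15.0, 12.4, 13.4 and 13.1 RPKM in Lcn2-/- LPS, against 10.9, 10.8, 11.0 and 6.30 RPKM in Lcn2-/- saline, where the last value is that library. The groups did not overlap, and the change was 0.50 ± 0.14 log2 (1.42-fold; adjusted p = 0.00788), or 0.30 without it (adjusted p = 0.00211). Rpl6 had 20.7, 22.1, 22.3 and 23.1 RPKM in Lcn2-/- LPS and 18.5, 19.5, 18.5 and 12.2 RPKM in Lcn2-/- saline libraries, a rise of 0.39 ± 0.10 log2 (adjusted p = 0.00643), or 0.23 without that library. Rps10, a protein of the small subunit head, had 15.4, 17.0, 18.1 and 16.6 RPKM in Lcn2-/- LPS and 14.6, 15.5, 14.9 and 8.62 RPKM in Lcn2-/- saline libraries, which overlapped. Its change of 0.36 ± 0.13 log2 (adjusted p = 0.0367) was 0.16 without that library. Rpl3, which lies close to the peptidyl transferase centre, rose by 0.34 log2 (adjusted p = 0.00343) with it and by 0.22 without it, and Rpl11 by 0.31 and 0.19.

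Other increases changed less when that library was left out. Rps19 had 7.22, 7.51, 7.73 and 7.59 RPKM in Lcn2-/- LPS and 5.89, 6.31, 5.82 and 6.02 RPKM in Lcn2-/- saline libraries, without overlap. The change was 0.32 ± 0.06 log2 (adjusted p = 0.000314), and 0.32 without Lcn2-/- saline replicate 4, the largest called in that fit (1.25-fold). Rpl5 rose by 0.24 ± 0.04 log2 (adjusted p = 8.01e-05) and by 0.26 without it. Rpl24 rose by 0.25 ± 0.05 and by 0.30 without it, Rps4x by 0.29 ± 0.06 and 0.23, and Rps20 by 0.33 ± 0.06 and 0.27. Rplp0 rose by 0.20 ± 0.04 log2 and by 0.16 without it. The smallest called rise was 0.10 ± 0.03 log2, in Rpl4.

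Rps21, a protein of the small subunit, was the member that fell. It had 210.4, 207, 212 and 208 RPKM in Lcn2-/- LPS, against 213, 222, 225 and 241 RPKM in Lcn2-/- saline. All LPS values were lower, with a change of -0.11 ± 0.04 log2 (adjusted p = 0.0475). Without Lcn2-/- saline replicate 4, the highest value, the change was -0.07 and not called (adjusted p = 0.117). Rplp1, at 308, 315, 302 and 305 RPKM in Lcn2-/- LPS and 302, 311, 315 and 283 RPKM in Lcn2-/- saline libraries, changed by 0.02 ± 0.05 log2 (adjusted p = 0.718) with overlapping groups.

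In wild type brains few members changed after LPS. Limma called 0 of 81 higher and 1 lower, Rps3a1, against 11.4% and 13.9% of all tested genes. An unadjusted p under 0.05 was found by limma for 6 of 81 members in either direction, against 35.8% of all genes. The median change was -0.05 log2 over the members and -0.02 over all genes, and 69 of 81 estimates were below 0. With 1 library of these groups left out the members' median ran from -0.07 to -0.02, the last without wild type saline replicate 3. Rps3a1, a small subunit protein next to the mRNA exit, stood at 91.5, 85.3, 88.8 and 90.5 RPKM in wild type LPS, against 91.3, 93.3, 96.0 and 97.3 RPKM in wild type saline. The ranges overlapped slightly, and the change was -0.09 ± 0.03 log2 (adjusted p = 0.0451). All wild type LPS libraries lay above all wild type saline libraries only for Rplp0, with 29.3, 30.2, 30.9 and 29.9 RPKM in wild type LPS and 29.1, 27.3, 28.0 and 28.6 RPKM in wild type saline libraries, and below them for 2 members, Rpl19 among them, against 13.8% above and 18.6% below over all genes. Rplp0 changed by 0.09 ± 0.04 log2 (adjusted p = 0.101). Leaving Lcn2-/- saline replicate 4 out of the shared spread brought Rplp0 (adjusted p = 0.018) to the higher side and 5 others, Rpl19, Rpl24, Rps10 and Rps16 among them, to the lower side beside Rps3a1, against 14.9% and 19.8% of all genes. Wild type saline replicate 3 had the highest mean over the members of its group (5.34 log2 RPKM, against 5.19 to 5.27 in the other 3).

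**Figure D4:**
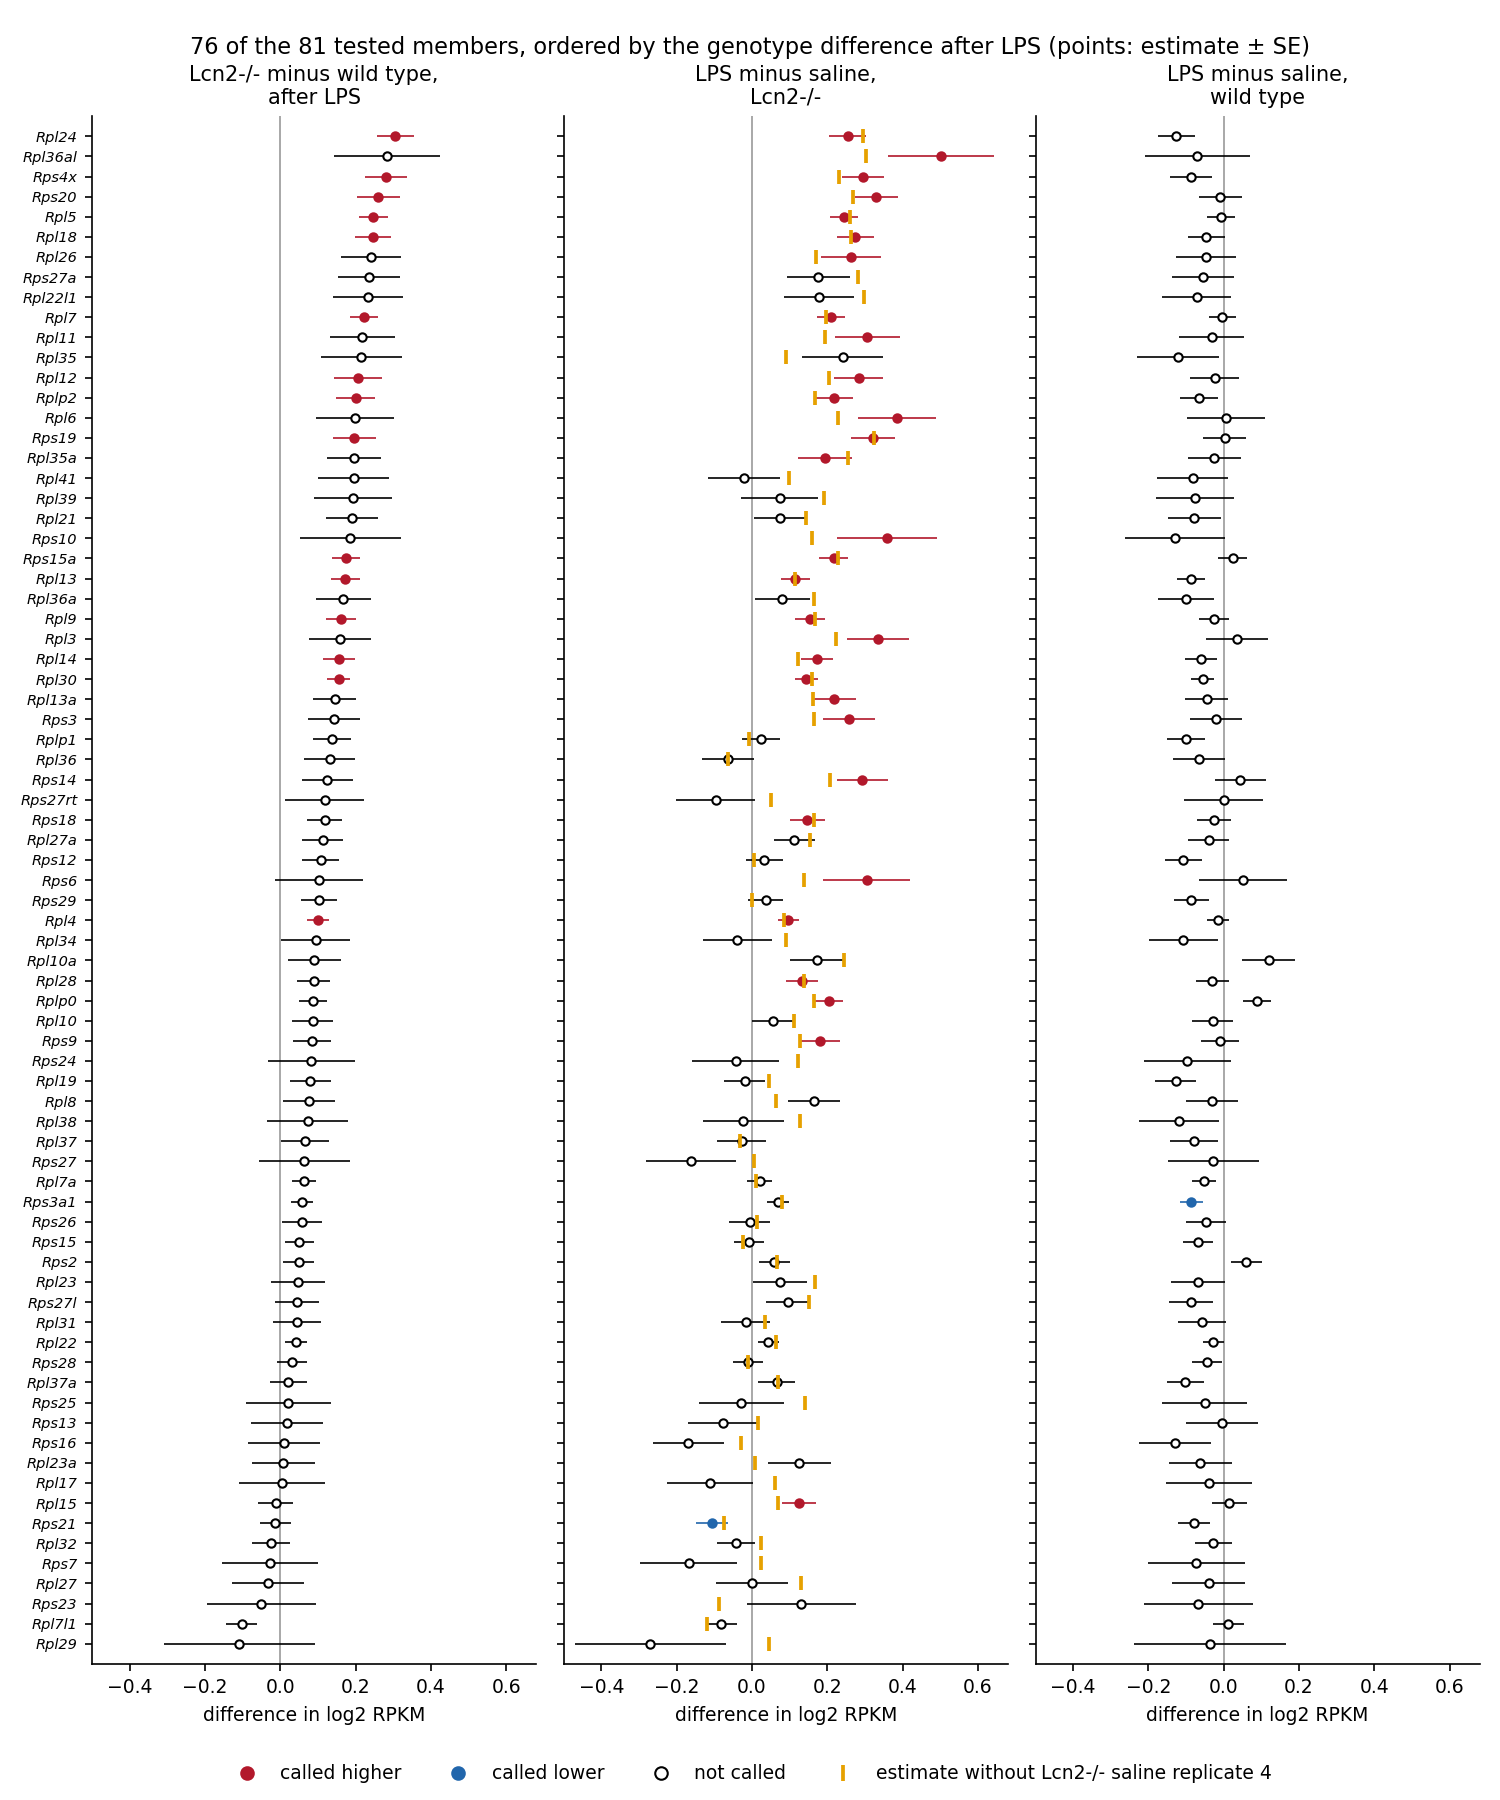
Estimated log2 difference with SE of 76 of the 81 tested members in 3 comparisons (Lcn2-/- against wild type after LPS; LPS against saline in Lcn2-/-; LPS against saline in wild type), with called members filled; orange ticks give the estimate for Lcn2-/- without saline replicate 4. There are 15, 32 and 1 filled points in the panels in that order.

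With saline alone the genotypes were not told apart in these genes. Limma called 0 members higher and 0 lower in Lcn2-/- saline than in wild type saline brains, against 0.0346% and 0.0115% of all genes (0 and 0 members, against 0.0519% and 0.0231%, without Lcn2-/- saline replicate 4). Of 81 members, 7 had an unadjusted p under 0.05 by limma, against 10.9% of all genes. The median was -0.03 log2 (-0.05 without wild type saline replicate 2 and -0.01 without replicate 3), with 24 estimates above 0 and 57 below. Rps3a1 and Rpl15 lay lower in all 4 Lcn2-/- saline libraries than in all 4 wild type saline libraries and no member lay higher, against 2.35% and 2.84% of all genes. Rps3a1 had 86.9, 86.7, 89.5 and 89.9 RPKM in Lcn2-/- saline and 91.3, 93.3, 96.0 and 97.3 RPKM in wild type saline libraries, a difference of -0.10 ± 0.03 log2 (adjusted p = 0.367).

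Whether the change after LPS differed by genotype was tested directly as the interaction, the change in brains labelled Lcn2-/- minus that in wild type. It was called above 0 for 15 of 81 members (18.5%) and below 0 for none of the 81 by limma. Of all tested genes 3.9% and 4.92% were called. An unadjusted p under 0.05 was found by limma for 35 of 81 members in either direction, against 28.5% of all genes. The median interaction was 0.16 log2 over the members and -0.00265 over all genes, and 69 estimates were above 0. The largest called were 0.38 ± 0.08 log2 for Rps4x (adjusted p = 0.0114) and 0.38 ± 0.07 for Rpl24 (adjusted p = 0.00611). Rpl24 changed by 0.25 log2 in Lcn2-/- and -0.13 in wild type brains, and Rps4x by 0.29 in Lcn2-/- and -0.09 in wild type. For both, a rise in brains labelled Lcn2-/- stood beside a wild type estimate below 0 that was not called in this fit. With Lcn2-/- saline replicate 4 out of the shared spread, the wild type fall of Rpl24 was called, as given above. For Rps20 (0.34 ± 0.08 log2, adjusted p = 0.0211) and Rps19 (0.32 ± 0.08, adjusted p = 0.0279), the wild type changes were -0.01 and 0.00. Rpl18 (0.32), Rpl12 (0.31) and Rplp2 (0.28) came next among those called, while the largest estimate, 0.57 ± 0.20 log2 for Rpl36al, was not called (adjusted p = 0.0785). Without Lcn2-/- saline replicate 4 the interaction was called for 33 members, all 15 included, against 6.03% of all genes, and was above 0 in 79 of 81. With each of the 16 libraries left out in turn, the number called ran from 8 to 33.

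Some ribosomal proteins are known for roles outside the ribosome, and 13 tested members of this kind were listed. In brains labelled Lcn2-/- 7 of the 13 rose after LPS, with a median of 0.22 log2, against 20.7% of all tested genes called higher. Without Lcn2-/- saline replicate 4, 10 of the 13 rose, with a median of 0.17 log2, against 20.7% of all tested genes. In wild type brains limma called 0 of the 13 in either direction, with a median of -0.05. After LPS, Rpl5 and Rps19 were the 2 called higher in Lcn2-/- than in wild type, and the median was 0.10 log2. That is 2 of 13, against 7.04% of all tested genes, or 6 of 13 without Lcn2-/- saline replicate 4 in the shared spread, against 13.7%. Rps3, which also acts in DNA repair, rose by 0.26 ± 0.07 log2 (adjusted p = 0.00609; 0.17 log2 without Lcn2-/- saline replicate 4) in brains labelled Lcn2-/-. Rpl13a, known from human monocytic cells as a silencer of inflammatory mRNAs, rose by 0.22 ± 0.06 log2 there (adjusted p = 0.00562; 0.16 log2 without that library). Rpl26, which binds p53 mRNA in human cells, rose by 0.26 ± 0.08 log2 (adjusted p = 0.0125; 0.17 log2 without that library). Rps6, the mTOR-pathway phosphorylation target of the small subunit, rose by 0.30 ± 0.12 log2 (adjusted p = 0.0414), and was not called without that library (0.14 log2, adjusted p = 0.0557).

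Paralogs were set beside their partners. Rpl22l1 and Rpl22 are alternative proteins at the same site of the ribosome. Rpl22l1 stood at 22.8, 23.1, 23.7 and 26.3 RPKM in Lcn2-/- LPS, against 18.5, 21.2, 20.9 and 20.9 RPKM in wild type LPS, without overlap, and at 19.7, 19.0, 19.7 and 27.1 RPKM in Lcn2-/- saline. Its difference from wild type after LPS was 0.23 ± 0.09 log2 (adjusted p = 0.0979; 0.00584 without Lcn2-/- saline replicate 4), while that of Rpl22 was 0.04 ± 0.03 log2. The level of Rpl7l1 relative to Rpl7 was -1.69 ± 0.04 log2 in Lcn2-/- LPS and -1.37 ± 0.04 in wild type LPS libraries, and -1.40 ± 0.05 and -1.39 ± 0.09 in Lcn2-/- saline and wild type saline libraries (SD, n = 4 each). Rps27 and its retrocopy Rps27rt share 98.6% and 91.1% of their windows with other genes, and neither value can be taken as that of 1 gene. Of the 5 tested paralogs listed, Rpl36al was the 1 (20%) called higher in brains labelled Lcn2-/- after LPS, against 20.7% of all tested genes. Without Lcn2-/- saline replicate 4, 3 were called higher and 1 lower, against 20.7% and 28.1% of all tested genes.

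The share of members that rose after LPS was larger at greater coding length, and less so without Lcn2-/- saline replicate 4. In brains labelled Lcn2-/-, 16 of 24 members with a coding length of 600 bases or more rose, 12 of 29 with 400 to under 600 bases and 6 of 28 with fewer than 400 bases. Without that library the counts were 17, 15 and 11. Of all tested genes 20.7% rose, with or without that library. Between genotypes after LPS, whose estimates do not use that library, the counts were 8 of 24, 5 of 29 and 4 of 28 (16, 11 and 11 with it out of the spread). Of all tested genes 7.04% were called higher there (13.7% with it out of the spread). Across the 81 members, rho between coding length and the change was 0.38 in Lcn2-/- and 0.42 in wild type brains, and 0.08 with the difference between genotypes after LPS; members are not independent replicates. Members with much and with little shared sequence were among those called. After LPS in brains labelled Lcn2-/-, 3 of 4 rose with fewer than 10% shared windows, 10 of 31 with 10 to 50% and 21 of 46 with 50% or more (3, 14 and 26 without that library). Between genotypes after LPS the counts were 1 of 4, 7 of 31 and 9 of 46 (4, 11 and 23 with it out of the spread). The shares of all tested genes given above apply to these counts too.

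Members lay on 19 chromosomes, the largest number (14) on chromosome 7, and 3 lay within 10 Mb of Lcn2 on chromosome 2. Rpl12 is 0.573 Mb from Lcn2, and its values are given above. Rpl7a, 5.47 Mb away, changed by 0.02 ± 0.03 log2 after LPS in brains labelled Lcn2-/- (adjusted p = 0.628). Rpl35, 6.61 Mb away, had 17.9, 16.1, 17.9 and 18.2 RPKM in Lcn2-/- LPS and 15.8, 14.6, 15.2 and 14.9 RPKM in wild type LPS libraries, without overlap (0.21 ± 0.11 log2; adjusted p = 0.188, or 0.00631 without Lcn2-/- saline replicate 4). After saline, none of these 3 was called between genotypes by limma.

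The 4 cytosolic ribosomal genes outside the symbol rule, Rack1, Rpsa and Fau among them, had medians of 0.17 log2 after LPS in brains labelled Lcn2-/-, of -0.06 after LPS in wild type and of 0.16 between genotypes after LPS. Without Lcn2-/- saline replicate 4 the first of these medians was 0.13. Rack1, a scaffold on the head of the small subunit, stood at 30.3, 31.4, 31.5 and 32.1 RPKM in Lcn2-/- LPS, against 27.2, 26.8, 28.4 and 27.5 RPKM in wild type LPS. In saline-injected brains it stood at 26.0, 27.0, 26.6 and 22.5 RPKM (Lcn2-/-) and 27.4, 26.6, 28.4 and 27.1 RPKM (wild type). The Lcn2-/- LPS libraries were above the other 12, by 0.19 ± 0.05 log2 over wild type LPS (adjusted p = 0.0146). Rack1 rose after LPS by 0.30 ± 0.05 log2 in brains labelled Lcn2-/- (adjusted p = 0.000102), or by 0.24 without Lcn2-/- saline replicate 4. Rpsa rose there by 0.26 ± 0.09 log2 (adjusted p = 0.021), or by 0.15 without Lcn2-/- saline replicate 4 (adjusted p = 0.0316), and was not called without Lcn2-/- LPS replicate 4 (adjusted p = 0.0628) or with GC and length trends removed (0.17 log2, adjusted p = 0.101); the other 2 were not called there.

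Genes that work with the ribosome were counted beside its proteins. Among all tested genes, 20.7% rose and 27.7% fell in Lcn2-/- after LPS, and 11.4% rose and 13.9% fell in wild type. Between genotypes after LPS, 7.04% were higher and 8.74% lower in Lcn2-/-. Without Lcn2-/- saline replicate 4 these shares were 20.7% and 28.1%, 14.9% and 19.8%, and 13.7% and 16.1%. Of 32 tested translation initiation factors, 19 rose and 0 fell in brains labelled Lcn2-/- after LPS (median 0.17 log2), 6 rose in wild type (median 0.04), and 11 were higher in Lcn2-/- than in wild type after LPS (median 0.08). Eif6, which keeps the large subunit from joining early, rose by 0.62 ± 0.11 log2 in Lcn2-/- (adjusted p = 0.000279) and was higher than in wild type LPS by 0.36 ± 0.11 (adjusted p = 0.0376). Eif2s2, a subunit of the factor that brings the initiator tRNA, rose by 0.58 ± 0.07 (adjusted p = 6.24e-06) and was higher by 0.30 ± 0.07 (adjusted p = 0.0105). Of 15 other tested TOP mRNAs, 9 rose in Lcn2-/- after LPS (median 0.22; 11 with a median of 0.13 without Lcn2-/- saline replicate 4), 1 rose in wild type (median 0.06), and 3 were higher in Lcn2-/- than wild type after LPS, among them Tpt1 by 0.22 ± 0.04 log2 (adjusted p = 0.00282) and the snoRNA host Gas5 by 0.20 (adjusted p = 0.0139). Of 45 ribosome biogenesis genes, 15 rose and 7 fell in Lcn2-/- after LPS (median 0.08), 2 rose and 2 fell in wild type, and 7 were higher in Lcn2-/- than wild type after LPS, with the nucleolar protein Ncl at 0.22 ± 0.05 log2 (adjusted p = 0.0129). Without Lcn2-/- saline replicate 4 in the shared spread, the counts higher in Lcn2-/- than wild type after LPS became 14 initiation factors, 8 other TOP mRNAs and 11 biogenesis genes (with 1, 2 and 1 lower, against 0 of each before), and those that rose after LPS in wild type 10, 5 and 5; 4 biogenesis genes then fell in Lcn2-/-. In Lcn2-/- after LPS, 4 of 11 elongation and termination genes rose and 3 fell, as did 3 and 3 of 15 ribosomal protein chaperones and quality control genes, and 8 and 8 of 32 genes of mTOR signalling and translation control. In wild type after LPS these counts were 2 and 2, 0 and 0 (3 at an unadjusted p under 0.05 by limma), and 8 and 3, the last with the translation repressor Eif4ebp1 at 0.94 ± 0.09 log2 (adjusted p = 6.06e-07). Between Lcn2-/- and wild type after LPS they were 2 and 1, 1 and 1, and 1 and 5, or 4 and 4, 1 and 1, and 4 and 9 without Lcn2-/- saline replicate 4 in the spread, which also took the wild type counts of mTOR genes to 8 and 5. Mycn, one of the MYC family regulators of these genes, changed after LPS in Lcn2-/- by -2.03 ± 0.15 log2 (adjusted p = 2.62e-08) and Myc by 1.48 ± 0.14 (adjusted p = 4.93e-07). Both are among the 32 genes of mTOR signalling and translation control. In wild type after LPS the changes of these 32 ran from -0.99 to 0.96 log2, so changes in this list were not confined to Lcn2-/-.

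Mitochondrial ribosomal proteins, which serve the other ribosome of the cell, and respiratory chain subunits were set beside the members. Of all tested genes, 20.7% rose and 27.7% fell in Lcn2-/- after LPS, and 11.4% rose and 13.9% fell in wild type. Between genotypes after LPS, 7.04% were higher and 8.74% lower in Lcn2-/-. Without Lcn2-/- saline replicate 4, 13.7% were higher and 16.1% lower between genotypes after LPS, and 19.8% fell in wild type. Of 77 mitochondrial ribosomal proteins, 24 rose and 10 fell in Lcn2-/- after LPS (median 0.05 log2), 1 rose and 8 fell in wild type (median -0.05), and 9 were higher in Lcn2-/- than wild type after LPS (median 0.04). Of 84 respiratory chain and ATP synthase genes, 16 rose (19.0%) and 12 fell (14.3%) in Lcn2-/- (median -0.01). In wild type 13 fell (15.5%, median -0.10), and 10 (11.9%) were higher in Lcn2-/- than wild type after LPS (median 0.04). Without Lcn2-/- saline replicate 4 in the shared spread, 21 mitochondrial ribosomal and 25 respiratory chain genes were higher in Lcn2-/- than wild type after LPS (3 of each were lower, against 0 of each before), and 15 and 34 fell in wild type. The cytosolic members had medians of 0.12, -0.05 and 0.11 log2 in the same 3 comparisons. The named ribosomal protein pseudogenes, of which 46 of 212 were tested, had 8 called higher in Lcn2-/- after LPS with a median of 0.45 log2, 0 called by limma in wild type (median -0.08), and 1 higher in Lcn2-/- than wild type after LPS (median 0.27). Without Lcn2-/- saline replicate 4 these became 6 called with a median of 0.20 in Lcn2-/- and 8 between genotypes after LPS. Reads of members and pseudogenes could not be told apart here.

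**Figure D5:**
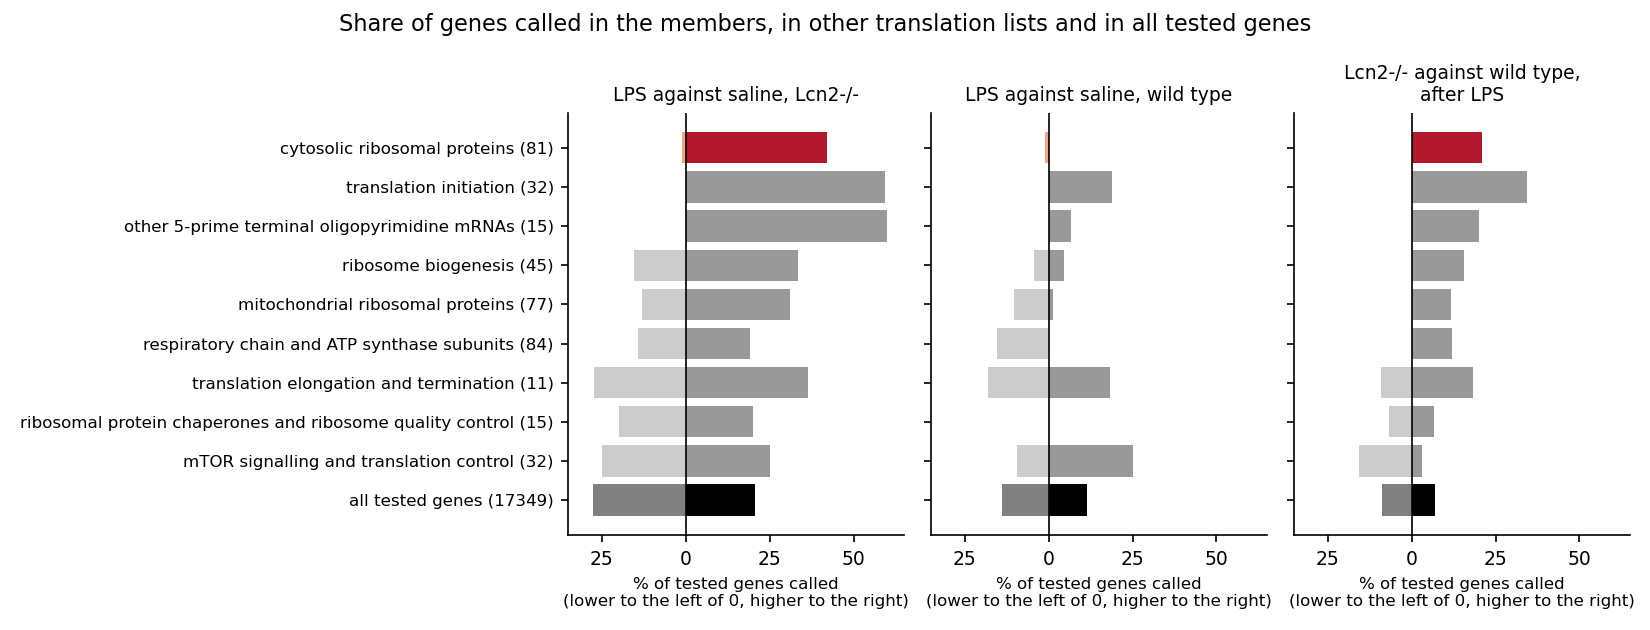
Percent of the tested genes of each list called higher (right) or lower (left) in 3 comparisons, with all tested genes in the bottom row. The members have 42.0%, 0% and 21.0% called higher after LPS in Lcn2-/-, after LPS in wild type, and in Lcn2-/- against wild type after LPS, and all tested genes 20.7%, 11.4% and 7.04%.

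Cell type markers moved with some of these groups, and their part in the members' differences was not tested. Neuron markers summed to 1181 ± 35.8 RPKM in Lcn2-/- LPS and 1221 ± 14.4 RPKM in wild type LPS libraries (10 of 10 tested, 1 called higher). Endothelial markers summed to 56.5 ± 4.44 RPKM in Lcn2-/- LPS and 60.8 ± 2.90 RPKM in wild type LPS libraries, with 1 of 8 called higher and 4 of 8 lower. Neutrophil and monocyte markers summed to 18.5 ± 6.76 RPKM (10.5 to 26.1) in Lcn2-/- LPS and 13.8 ± 3.08 RPKM (10.5 to 17.3) in wild type LPS libraries. Only 4 of these 8 were tested and 1 was called, and Ly6g, which defines neutrophils, was at 0.0229 to 0.115 RPKM in the 8 LPS libraries. Erythroid markers had median estimates in the same directions as the members. They summed to 7.40 ± 1.34 RPKM (5.59 to 8.71) in Lcn2-/- LPS and 4.46 ± 0.69 RPKM (3.76 to 5.37) in wild type LPS libraries without overlap, and to 6.09 ± 1.37 RPKM in Lcn2-/- saline and 8.42 ± 3.66 RPKM in wild type saline libraries. Of 6 listed, 4 globin genes were tested, and all 4 estimates were above 0 between genotypes after LPS (median 0.78 log2, 1 called, Hba-a1 at 0.97 ± 0.31), above 0 after LPS in Lcn2-/- (median 0.32, or 0.12 without Lcn2-/- saline replicate 4) and below 0 after LPS in wild type (median -0.95, 1 called). With that library out of the spread, 2 and 3 were called between genotypes after LPS and after LPS in wild type. Their interaction had a median of 1.26 log2, with 0 of 4 called by limma and 4 of 4 at an unadjusted p under 0.05. The other 2, Alas2 and Slc4a1, did not reach the level needed for testing. Choroid plexus markers summed to 475 ± 5.07 RPKM in Lcn2-/- LPS and 443 ± 17.2 RPKM in wild type LPS libraries without overlap, nearly all of it Ttr. Of the 7 tested, limma called 0 between genotypes after LPS, and 0 at an unadjusted p under 0.05. Astrocyte, microglia and oligodendrocyte markers had medians of 0.000773, -0.04 and -0.01 log2 between genotypes after LPS, with 1 of 8 microglia markers called lower. Pericyte and smooth muscle markers had a median of -0.10 there, with 7 of 7 estimates below 0 and 0 called by limma. After saline, 8 of 8 oligodendrocyte estimates were below 0 in Lcn2-/- against wild type, with 0 called by limma.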

How the data were processed

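RNA-seq of 16 hemi-brain libraries was used, 4 in each of 4 groups taken from the source labels; the design text of the series speaks of 3 to 4 replicates per combination. The authors deposited 1 table of log2 RPKM values after conditional quantile normalization, per the file's name and the labels, with mouse build mm10 per the submitters' processing notes. RPKM in the text is 2 raised to the deposited log2 value. The aligner, the counter, the strand setting and the annotation were not given in the sources used. No counts were used, the depth is unknown, and 0 columns of other samples were present. Symbols, positions, coding lengths and shared 50-base windows came from GENCODE vM21 (594 of 33289 IDs without a match) and promoters from RefSeq (GRCm38.p6).

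Genes with a log2 RPKM of at least -1 in at least 3 libraries were tested (17349, with 15940 removed). limma 3.58.1 in R 4.3.3 fitted the 4 group means over all 16 libraries, with a variance trend, and gave 4 pairwise contrasts and their interaction. Tests were two-sided, adjusted by Benjamini-Hochberg over all tested genes, and called at an adjusted p under 0.05. The labels give no number, litter or batch that pairs samples, and do not say that replicates are separate animals, so the p-values reflect sample-to-sample spread, which may be technical. Groups do not overlap where all 4 libraries of one lie beyond all 4 of the other.

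The members and the other gene lists were chosen with earlier results of these data known. Named were, per comparison, the 8 largest called changes in each direction and the 3 highest uncalled members, the members of highest and lowest level, those within 10 Mb of Lcn2, the lists of roles outside the ribosome, paralogs and genes outside the symbol rule, and the 2 largest called changes of the other lists; genes named because a count of theirs is 5 or fewer, or because they differ without Lcn2-/- saline replicate 4, were picked after their values were seen. A few genes that this rule takes are not reported here. Alternatives changed the pseudocount (0.5 or 1 RPKM), the filter, the scaling between libraries, trends with GC content and length (mgcv 1.9.3), the variance model, the samples in the fit and each replicate in turn. The fit was tested on simulated data.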

Additional observations from a re-analysis of the deposited data

Results flagged for a closer look

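Libraries far from the others of their group were looked for in 84 sets of 4 libraries. These came from 20 named members that were called in a comparison, and from the mean over all members. Chance flags about 1 in 20 of sets that were not picked by their values. There were 10, and 8 of them were Lcn2-/- saline replicate 4. In RPKM that library stood at 8.35 for Rpl11 (11.2 to 11.5 in the other 3), 16.2 for Rpl3 (21.9 to 22.4), 6.30 for Rpl36al (10.8 to 11.0), 12.2 for Rpl6 (18.5 to 19.5) and 8.62 for Rps10 (14.6 to 15.5). It stood at 54.5 for Rps3 (69.0 to 71.9) and 8.63 for Rps6 (13.4 to 13.8). These 7 proteins belong to both subunits, and all were low in it. All 7 were screened as called rises after LPS in Lcn2-/-, which a low value in that library enlarges, so low values were favoured by the choice. Rpl29, at 1.26 log2 above the other 3, was not called and not in the screen. Its mean over the 81 members was the highest of its group, at 5.23 log2 RPKM (5.20 in each of the other 3). The remaining flags were single values of wild type libraries: Rpl18 at 6.80 RPKM in LPS replicate 3 (6.24 to 6.26 in the other 3), and Rps20 at 33.3 RPKM in LPS replicate 2 (34.4 to 34.5). Nothing tested a cause of any of these values.

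A change after LPS that differed between the genotypes, by limma's interaction test over all genes, was found for 15 members (18.5%), all more positive in brains labelled Lcn2-/-. Of all tested genes 3.9% were called above 0 and 4.92% below 0. The members' count ran from 8 to 33 with 1 replicate left out. Among the largest of the 15 were 0.38 log2 for Rps4x, 0.38 for Rpl24, 0.34 for Rps20, 0.32 for Rpl18, 0.32 for Rps19, 0.31 for Rpl12 and 0.28 for Rplp2.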

How the results depend on the processing

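No paired analysis was possible because the titles number the samples through from the first to the last, and no number is shared between groups. The count of members higher after LPS in Lcn2-/- (34) stayed within 1.5 times under every alternative run (28 to 43 with 1 replicate left out), and that higher in Lcn2-/- than wild type after LPS (17) was 41 with only the groups compared in the fit, 38 without Lcn2-/- saline replicate 4 in the shared spread, and 12 to 17 with a replicate of its own groups left out, with 0 lower except for 1 in the second of these. In wild type after LPS, 1 member was higher with only the groups compared and 1 without Lcn2-/- saline replicate 4 in the spread (0 with a replicate of its own groups left out); the 1 lower became 3 with no filter, 5 with GC and length trends removed, 0 without a variance trend, 4 with only the groups compared, 6 without Lcn2-/- saline replicate 4 in the spread and 0 to 3 with a replicate left out. The 1 lower in Lcn2-/- after LPS became 2 with no filter, 2 with GC and length trends removed, 0 without a variance trend, 0 with only the groups compared and 0 to 1 with a replicate left out. The interaction count (15) ran from 8 to 33 with a replicate left out, 33 without Lcn2-/- saline replicate 4, 8 without Lcn2-/- LPS replicate 2 or 3 or wild type saline replicate 3, and 9 without wild type saline replicate 4.

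The change in Rps15 after LPS in Lcn2-/- was -0.01 log2 in the fit reported and 0.14 with GC and length trends removed (adjusted p = 0.0446). That in Rps25 was -0.03 and ran from -0.0937 to 0.14 with a replicate left out, the highest without Lcn2-/- saline replicate 4 (adjusted p = 0.0103). Leaving out 1 library of its own groups in turn ended the call between genotypes after LPS of Rpl12 in 7 of 8 cases (all but Lcn2-/- LPS replicate 1; adjusted p up to 0.0982), of Rps19 in 6 of 8 (up to 0.0948) and of Rplp2 in 1 (wild type LPS replicate 1, 0.0560). After LPS in Lcn2-/- it ended that of Rps21 in 7 of 8 (up to 0.117), of Rps6 in 4 (up to 0.101), of Rps10 in 3 (up to 0.0929) and of Rpsa in 1, and in wild type that of Rps3a1 in 6 (up to 0.153). The interaction was lost in 12 of 16 cases for Rpl12, 5 for Rplp2 and 3 for Rps19 (up to 0.100, 0.0598 and 0.0629). Of 2070 values of 106 named results under the alternatives, 1938 kept the call, 57 became called and 73 were no longer called. The remaining 2 changed sign with a call in either fit. Changes of sign between fits that did not call the gene are counted among the 1938, as for Rps7 and Rpl38 after LPS in Lcn2-/-. The cause was not tested, beyond the fewer samples in the fits that leave some out. The removal of Lcn2-/- saline replicate 4 from the spread of comparisons that do not include it was chosen after seeing the data. Most members differed by less than 0.3 log2, 4 libraries per group and unknown depth limit the precision, and reads of pseudogenes could not be separated from those of members.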
